A study of Mus musculus with 12 samples.

Results

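Car6, Avil, Als2cl, Cdsn, Dnmt3l and Pi16 are 6 mouse genes that thapsigargin raised in control C2C12 myoblasts far more than in C2C12 myoblasts with Cebpg knocked down. They were selected on those measured responses, so their own changes are given here as values with their errors and without a test. They are 6 of 53801 gene identifiers in the counts and 6 of the 15828 genes with enough reads to be tested. All 6 passed that filter, which a gene can pass through 1 group alone, and all 6 were highest in control cells with thapsigargin, so passing it is no sign of expression in the other groups.

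C2C12 is a mouse myoblast line, and thapsigargin blocks SERCA, the pump that fills the endoplasmic reticulum (ER) with calcium, so that proteins misfold there. The libraries fell into 4 groups of 3. They were knockdown cells (labelled Sh2) with thapsigargin, control cells (Ctrl) with thapsigargin, knockdown cells with DMSO, the solvent, and control cells with DMSO, each for 6 h. Knockdown rests on 1 labelled hairpin, Sh2, so effects of Cebpg loss and of that hairpin or cell population cannot be told apart. The construct in control cells was not given in the sources used here, and nothing states that libraries of a group came from separate cultures, so errors cover the spread between these libraries, which may be technical.

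Under ER stress the kinase PERK slows translation by phosphorylating eIF2alpha, and translation of the transcription factor ATF4 rises. ATF4 binds DNA as a dimer with another basic leucine zipper protein, often a member of the C/EBP family, at composite sites that join an ATF and a C/EBP recognition sequence. C/EBPgamma, the product of Cebpg, lacks a transactivation domain, is itself made in response to ATF4, and is known as an ATF4 partner at amino acid metabolism and antioxidant genes.

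The libraries held 29.4 to 47.7 M reads in genes (M, 10 to the power 6). All 8 myoblast markers were detected, with a summed level of 1589 to 1633 reads per M reads in genes (CPM) in knockdown cells with thapsigargin, 1593 to 1666 in control cells with thapsigargin, 1460 to 1542 in knockdown cells with DMSO and 2029 to 2222 in control cells with DMSO. The culture protocol in the labels names HeLa, a human line, whereas the cell line field names C2C12, and the counts are of mouse genes. Cebpg itself had 6.502, 5.85 and 5.67 CPM in knockdown cells with thapsigargin, 205, 212 and 210 in control cells with thapsigargin, 4.51, 3.62 and 5.12 in knockdown cells with DMSO, and 51.6, 51.0 and 60.4 in control cells with DMSO. The knockdown level was 2.87% of the control level with thapsigargin (95% counting interval of the ratio 0.0264 to 0.0313) and 8.13% with DMSO (0.0737 to 0.0895). Intervals here are exact binomial intervals on pooled reads and cover counting error only.

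Promoter sequences are shown beside the responses because C/EBPgamma acts by binding DNA. RefSeq (GRCm38.p6) gave 10 windows for the 6 genes, each from 250 bases before to 50 bases after an annotated start, and each was searched on both strands for TGATGNAA, the core of the composite C/EBP-ATF element, TTGCNNAA, a C/EBP dimer site, and TGACGTCA, the cyclic AMP response element. TGATGNAA was found for 2 of the 6 genes, Avil and Pi16, against 4.51% of 27025 genes with a window. TTGCNNAA was found for Avil and Cdsn, against 12.2% of genes, and TGACGTCA for none of the 6, against 2.03%. The motifs did not overlap one another in these windows. The whole windows are shown for the genes with a match and for Car6, whose control response was the largest of the 6, in gene orientation with matches in capitals. They are Car6 (chr4:150201086-150201385, minus strand), Avil (chr10:127000459-127000758, plus strand), Pi16 (chr17:29318632-29318931, plus strand) and the second of the windows of Cdsn (chr17:35551878-35552177, plus strand).
Car6: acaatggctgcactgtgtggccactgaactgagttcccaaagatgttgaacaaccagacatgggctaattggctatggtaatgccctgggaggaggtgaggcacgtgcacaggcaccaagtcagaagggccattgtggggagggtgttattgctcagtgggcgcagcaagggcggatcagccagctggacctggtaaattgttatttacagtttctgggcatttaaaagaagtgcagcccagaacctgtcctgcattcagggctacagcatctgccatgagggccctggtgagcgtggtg
Avil: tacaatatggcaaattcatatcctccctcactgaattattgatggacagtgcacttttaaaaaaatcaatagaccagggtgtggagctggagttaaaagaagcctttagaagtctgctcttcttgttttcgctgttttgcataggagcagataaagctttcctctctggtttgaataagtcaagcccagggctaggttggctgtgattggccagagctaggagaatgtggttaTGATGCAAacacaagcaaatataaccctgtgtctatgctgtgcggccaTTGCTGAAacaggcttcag
Pi16: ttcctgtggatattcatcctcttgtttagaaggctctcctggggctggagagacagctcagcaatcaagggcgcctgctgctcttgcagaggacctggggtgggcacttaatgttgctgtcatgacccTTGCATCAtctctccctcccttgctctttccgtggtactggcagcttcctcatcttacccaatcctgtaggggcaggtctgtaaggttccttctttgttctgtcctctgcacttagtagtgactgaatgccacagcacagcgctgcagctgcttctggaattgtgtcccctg
Cdsn: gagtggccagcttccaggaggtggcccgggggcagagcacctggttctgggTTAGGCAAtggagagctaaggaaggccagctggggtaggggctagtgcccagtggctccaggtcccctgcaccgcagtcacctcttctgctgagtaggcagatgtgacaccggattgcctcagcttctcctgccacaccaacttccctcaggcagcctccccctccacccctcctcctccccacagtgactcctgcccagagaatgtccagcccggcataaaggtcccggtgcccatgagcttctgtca
The Avil match to TGATGNAA began 17 bases before the start and read TGATGCAA. The Pi16 match lay on the other strand, began 122 bases before the RefSeq start of its window and read TTGCATCA in the orientation printed. By the gene position given below, which begins at chr17:29317680, this match lies inside Pi16, and the earlier start was not searched. The TTGCNNAA matches began 31 bases after the Avil start and, on the other strand, 199 bases before the Cdsn start. In the Car6 window and in those of Als2cl and Dnmt3l none of the 3 motifs was present. By the gene positions given below, the windows of Als2cl (first from chr9:110879924) and Dnmt3l (first from chr10:78042037) lie inside these genes. The sequence before their earliest starts was thus not searched. The Car6 window ends at chr4:150201385, close to the gene start at 150201332, so little of the sequence before that start was searched. Absence of a match there does not cover these promoters. A match is a string of letters, not a measured site, and starts outside these windows were not searched.

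For scale, TGATGNAA was present for 8 of 23 known ATF4 and CHOP stress genes with a window (34.8%), among them Atf3, Trib3, Chac1, Asns, Fgf21 and Slc7a11. It was present for 1 of 20 ER chaperone and degradation genes (5%), Herpud1, and for 336 of 11250 tested genes (2.99%). It was present for 23 of 249 genes raised by at least 3 on the log2 scale in control cells (9.24%). Of these, 29 kept less than 10% of that rise in knockdown cells, and 6 of the 29 had it (20.7%), with Avil and Pi16 among them. Those 29 were picked by the kind of response that also chose the selected genes, so their share is no separate evidence on these. The 6 selected genes have 10 windows, more per gene than the 32851 windows of the 27025 genes, and so more chances of a match.

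Car6, Pi16 and Cdsn encode proteins that leave the cell. Car6 encodes carbonic anhydrase 6, the secreted member of its family, best known from saliva; in mouse cells a shorter form that stays in the cell and depends on the stress factor CHOP has also been described, and the counts do not separate the forms. The gene lies on chr4:150187015-150201332 (minus strand, GENCODE vM21 on GRCm38, as for all gene positions here). Car6 had 0.719, 0.646 and 1.13 CPM in knockdown cells with thapsigargin and 124, 123 and 134 CPM in control cells with thapsigargin. With DMSO it had 0.0631, 0.0856 and 0 CPM in knockdown cells and 0.436, 0.425 and 0.490 CPM in control cells. Every control thapsigargin library was above every other library by more than 2 orders of magnitude, and the knockdown libraries were below the control libraries in both treatments. The pooled thapsigargin over DMSO ratio was 17.0 in knockdown cells (95% interval 6.995 to 53.9; 78 and 5 reads) and 282 in control cells (212 to 383; 14770 and 47 reads). All stressed knockdown libraries were thus above the unstressed ones, but their mean of 0.833 ± 0.264 CPM was 0.661% of the control level with thapsigargin on pooled reads. It was above the 0.450 ± 0.0346 CPM of control cells with DMSO (SD, n = 3 each), and those libraries did not overlap. The rise in CPM in knockdown cells was 0.619% of the control rise, and the log2 difference of thapsigargin effects (knockdown minus control) was -4.29 ± 0.99 (approximate SE).

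Pi16 encodes peptidase inhibitor 16, a protein of the CAP superfamily (named for CRISP, antigen 5 and PR-1 proteins) known as a marker of a fibroblast subset and from heart muscle (chr17:29317680-29330593, plus strand). It had 0.125, 0.340 and 0.441 CPM in knockdown cells with thapsigargin and 8.29, 8.53 and 9.26 CPM in control cells with thapsigargin. With DMSO it had 0.158, 0.228 and 0.114 CPM in knockdown cells and 0.987, 1.05 and 0.980 CPM in control cells. Knockdown libraries lay below control libraries with either treatment, whereas thapsigargin and DMSO libraries of knockdown cells overlapped. The thapsigargin ratio was 1.80 in knockdown cells (0.951 to 3.50; 28 and 17 reads) and 8.64 in control cells (7.07 to 10.7). The interval in knockdown cells reached below 1, so a rise there was not detectable at this depth. The knockdown level was 3.46% of the control level with thapsigargin and 16.6% with DMSO, and the log2 difference of effects was -2.43 ± 0.54.

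Cdsn encodes corneodesmosin, an adhesive protein of the junctions that hold the outer cells of the epidermis together (chr17:35552128-35557180, plus strand). It had 3.16, 2.48 and 2.11 CPM in knockdown cells with thapsigargin and 41.4, 37.3 and 39.9 CPM in control cells with thapsigargin. With DMSO it had 5.18, 5.48 and 6.64 CPM in knockdown cells and 5.81, 6.21 and 7.35 CPM in control cells. The DMSO groups overlapped, and the direction of the thapsigargin response differed, since every knockdown thapsigargin library was below, and every control thapsigargin library above, all 6 DMSO libraries. The thapsigargin ratio was 0.448 in knockdown cells (0.384 to 0.521) and 6.08 in control cells (5.602 to 6.597). Cdsn was the only one of the 6 genes with a ratio below 1 in knockdown cells. With DMSO the knockdown level was 89.6% of the control level (interval of the ratio 0.800 to 1.002), and the log2 difference of effects was -3.93 ± 0.16.

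**Figure D1:**
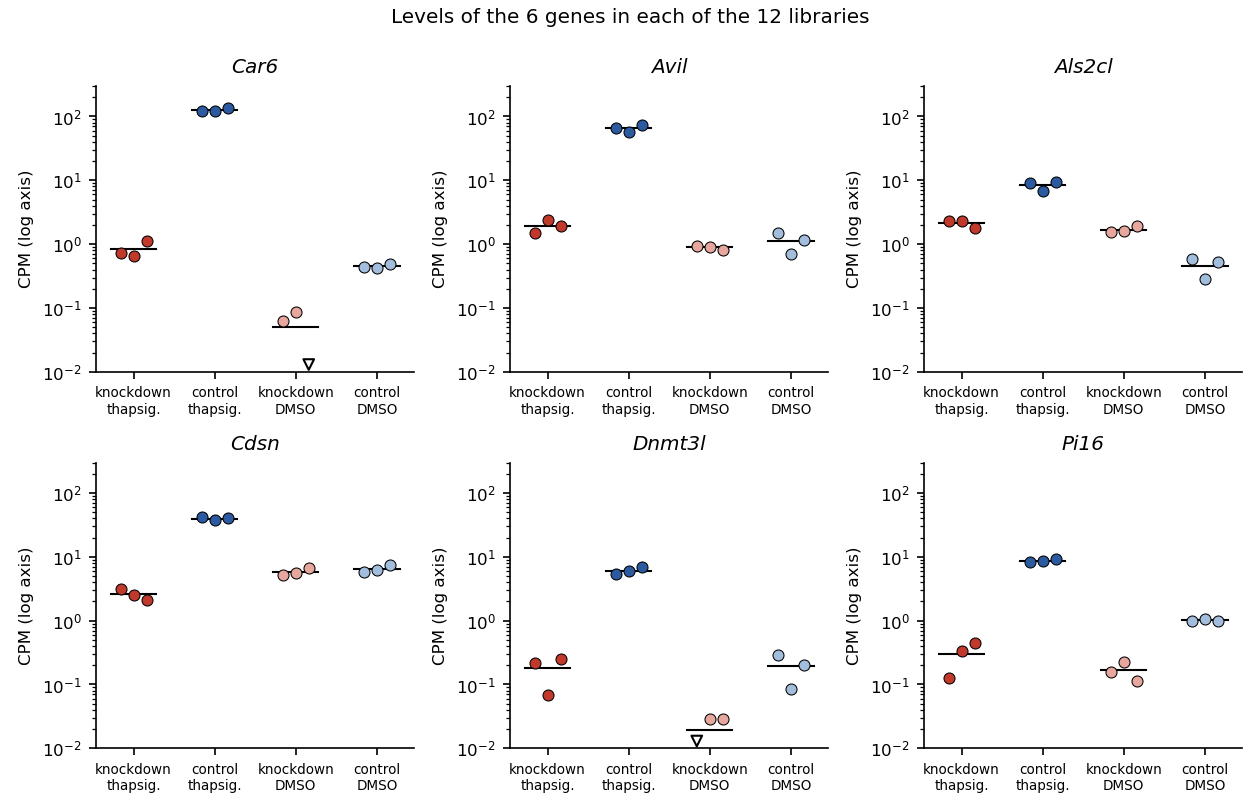
CPM (log axis) of the 6 genes in the 3 libraries of each group, knockdown before control and thapsigargin before DMSO, with a line at each group mean and open triangles at the axis floor for libraries with 0 reads. In all 6 panels the 3 control thapsigargin libraries are the highest, and in the Als2cl panel the control DMSO libraries are the lowest.

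Avil, Als2cl and Dnmt3l encode proteins that act inside the cell. Avil encodes advillin, an actin-binding protein of the villin and gelsolin family known from sensory neurons (chr10:127000709-127020994, plus strand). It had 1.501, 2.41 and 1.95 CPM in knockdown cells with thapsigargin and 66.4, 57.4 and 72.3 CPM in control cells with thapsigargin. With DMSO it had 0.947, 0.913 and 0.801 CPM in knockdown cells and 1.48, 0.709 and 1.18 CPM in control cells. The DMSO groups overlapped (knockdown over control ratio 78.97%, interval of the ratio 0.593 to 1.05), so the gap between knockdown and control was a gap in the response. The thapsigargin ratio was 2.20 in knockdown cells (1.70 to 2.86) and 57.6 in control cells (48.0 to 69.8), and the log2 difference of effects was -4.88 ± 0.34, the lowest of the 6. Avil shares 165 exon bases (4.86% of its exons) with Tsfm on the opposite strand, and the strand used in counting was not given. Tsfm averaged 66.3 CPM in knockdown cells with thapsigargin, 52.9 in control cells with thapsigargin, 55.6 in knockdown cells with DMSO and 50.9 in control cells with DMSO. Its part in the low Avil values was not tested.

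Als2cl encodes a protein that binds the small GTPase Rab5 of early endosomes (chr9:110879870-110900530, plus strand). It had 2.34, 2.311 and 1.76 CPM in knockdown cells with thapsigargin and 9.10, 6.81 and 9.50 CPM in control cells with thapsigargin. With DMSO it had 1.55, 1.597 and 1.92 CPM in knockdown cells and 0.581, 0.284 and 0.519 CPM in control cells. In unstressed cells the order was therefore turned round: all 3 knockdown libraries were above all 3 control libraries, 3.68-fold on pooled reads (2.66 to 5.18), which held for no other of the 6 genes. The thapsigargin ratio was 1.26 in knockdown cells (1.02 to 1.56), where the libraries overlapped between treatments, and 18.0 in control cells (13.5 to 24.6). The knockdown level with thapsigargin, 25.8% of the control level, was the highest such share of the 6, and the log2 difference of effects was -4.00 ± 0.30. Als2cl shares 244 exon bases with Tmie and 669 with the gene model Gm43127, both on the opposite strand, and those had 60 and 12 reads over all libraries.

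Dnmt3l encodes a relative of the DNA methyltransferases that has no catalytic activity and guides DNMT3A in germ cells (chr10:78041947-78063622, plus strand). It had 0.219, 0.0680 and 0.252 CPM in knockdown cells with thapsigargin and 5.39, 5.97 and 6.84 CPM in control cells with thapsigargin. With DMSO it had 0, 0.0285 and 0.0286 CPM in knockdown cells and 0.290, 0.0851 and 0.202 CPM in control cells. Its level was low in knockdown cells with either treatment, and the stressed knockdown libraries overlapped the unstressed control libraries. The thapsigargin ratio was 9.28 in knockdown cells (2.20 to 82.8) and 31.8 in control cells (20.4 to 52.3), and these intervals overlap because the knockdown ratio rests on 17 and 2 reads. For Dnmt3l a smaller fold response in knockdown cells was thus not detectable at this depth (log2 difference -2.11 ± 1.53), whereas its level with thapsigargin was 2.999% of the control level (interval of the ratio 0.0174 to 0.0484). Dnmt3l shares 67 exon bases and Pi16 shares 222 with genes on the opposite strand, Aire with 27 reads over all libraries and AC162182.1 with 0 reads.

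Set against each other per length (reads per kilobase of exon per M reads, RPKM), Car6 was the highest of the 6 in control cells with thapsigargin, at 69.9 ± 3.25 RPKM (SD, n = 3, as for the values that follow). Avil had 19.2 ± 2.20 RPKM and Cdsn 14.8 ± 0.782 RPKM, and their libraries did not overlap. Dnmt3l had 2.03 ± 0.243 RPKM, Als2cl 1.44 ± 0.247 RPKM and Pi16 1.37 ± 0.0792 RPKM. Als2cl and Pi16 did not differ beyond their spread, and Dnmt3l lay above both. In knockdown cells with thapsigargin all 6 were below 1 RPKM on average, and Cdsn was then the highest, at 0.965 ± 0.198 RPKM. In bulk RNA, fewer cells that express a gene and less RNA per cell cannot be told apart. The 6 genes are known from separate tissues, and markers of those were therefore read alongside. Of the 6 salivary acinar markers Bpifa2, Dcpp1 and Smgc had 0 reads in every library, and the summed level of the list was 138 to 150 CPM in knockdown cells with thapsigargin and 38.8 to 42.7 CPM in control cells with thapsigargin, 163 to 192 CPM in knockdown cells with DMSO and 91.4 to 95.6 CPM in control cells with DMSO, nearly all of it Aqp5. The 6 germ cell and pluripotency markers summed to 0.473 to 0.719 CPM in knockdown cells with thapsigargin, 0.587 to 0.811 CPM in control cells with thapsigargin, 0.114 to 0.315 CPM in knockdown cells with DMSO and 0.202 to 0.610 CPM in control cells with DMSO, with Pou5f1 at 0 reads. The 7 keratinocyte markers summed to 32.8 to 39.3 CPM in knockdown cells with thapsigargin and 23.6 to 27.7 CPM in control cells with thapsigargin, and to 19.8 to 22.7 CPM and 19.66 to 19.73 CPM in knockdown and control cells with DMSO. The 5 sensory neuron markers summed to 129.6 to 132 CPM in knockdown cells with thapsigargin, 95.2 to 105 CPM in control cells with thapsigargin, 87.2 to 91.3 CPM in knockdown cells with DMSO and 77.4 to 81.0 CPM in control cells with DMSO, mostly Tubb3. The 8 epithelial markers summed to 38.96 to 42.8 CPM in knockdown cells with thapsigargin, 21.96 to 25.7 CPM in control cells with thapsigargin, 22.1 to 23.04 CPM in knockdown cells with DMSO and 14.5 to 16.8 CPM in control cells with DMSO. The 5 leukocyte markers summed to at most 6.90 CPM in any library. The 5 endothelial markers, led by Tek, summed to 19.8 to 22.4 CPM in knockdown cells with thapsigargin, 26.6 to 31.3 CPM in control cells with thapsigargin, 5.71 to 6.81 CPM in knockdown cells with DMSO and 4.18 to 5.10 CPM in control cells with DMSO. With thapsigargin the endothelial sum was thus lower in knockdown than in control cells, mostly through Tek (means 12.1 against 21.9 CPM). Pecam1 was also lower (0.588 against 0.798 CPM). Vwf (5.56 against 4.21 CPM), Kdr (1.57 against 0.733 CPM) and Cdh5 (0.994 against 0.503 CPM) were higher in knockdown cells. With thapsigargin the germ cell ranges overlapped, and the salivary, keratinocyte, sensory neuron and epithelial sums, each led by 1 gene, were higher in knockdown cells. The part of other cell types in the levels of the 6 genes was not tested.

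Across the transcriptome the 6 genes were among the lowest differences of effect, from rank 26 for Avil to rank 321 for Dnmt3l of 15828 genes, as their selection fixes. Of 356 genes raised by at least 3 on the log2 scale in control cells and reaching 1 CPM there, 5 were among the 6 (Cdsn had a smaller response). Over the 356 genes the rise in CPM in knockdown cells was a median 73.8% of that in control cells, and 39 genes (10.96%) kept less than 10%. On the log2 scale their median difference of effects was -1.31, with 144 called lower and 1 higher (all genes: 17.7% lower, 17.6% higher). A smaller fold response was thus common among these genes. They were picked by the control response that is subtracted in the difference, which by itself favours lower values. The shares over all genes are therefore no like background for them. By lowest log2 difference Avil ranked 11, Car6 12, Als2cl 21, Pi16 80 and Dnmt3l 104 of the 356. All 6 genes kept less than 10% of the control rise, from -9.62% for Cdsn to 5.66% for Als2cl.

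**Figure D2:**
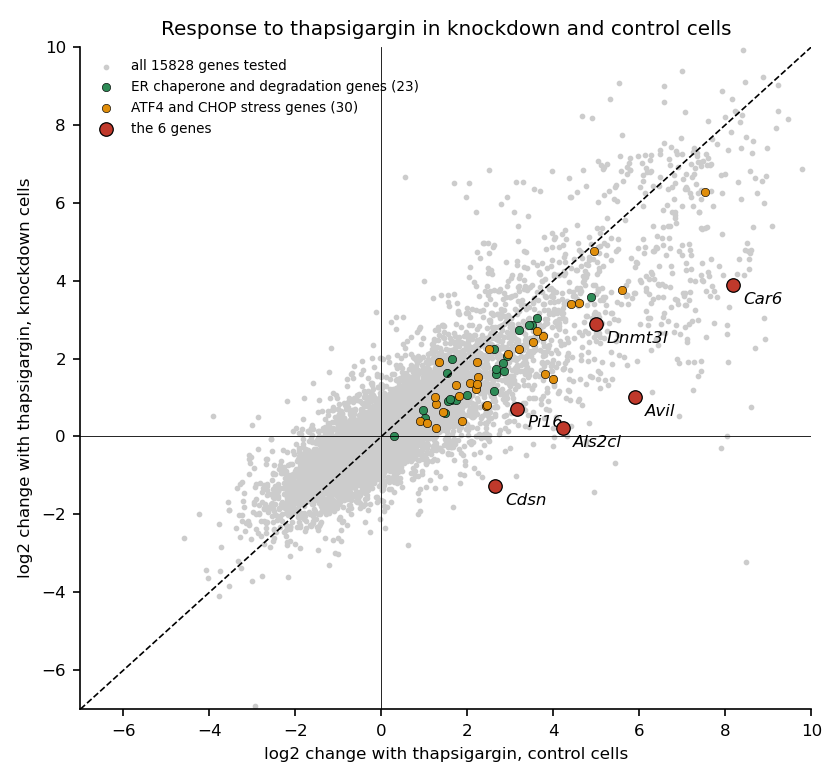
Log2 change with thapsigargin in knockdown cells against that in control cells for all 15828 genes tested, with ER chaperone and degradation genes, ATF4 and CHOP stress genes and the 6 genes marked, and a dashed line of equal response. The 6 genes lie below the line, with log2 differences of -4.88 to -2.11, and Cdsn is the only marked gene below 0 in knockdown cells.

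Known ATF4 and CHOP target genes of the ER stress response give the pathway around the 6 genes. All 30 such genes rose with thapsigargin in knockdown cells (all genes tested: 35.4% called higher and 34.4% lower, edgeR quasi-likelihood test at an adjusted p below 0.05) and all 30 rose in control cells (37.7% higher and 37% lower). Their response was smaller in knockdown cells for 26 of 30, larger for 1 and not past the test for 3, whereas over all genes 17.7% had a lower and 17.6% a higher response in knockdown cells. The median log2 difference was -0.90. With thapsigargin all 30 were lower in knockdown than in control cells (all genes: 28.4% lower, 28.5% higher), and with DMSO 17 were lower, 6 higher and 7 did not pass (all genes: 26.5% lower, 25% higher). These comparisons share libraries. The largest falls in response were those of Ppp1r15a, the stress-induced phosphatase subunit that restores translation (log2 difference -2.51 ± 0.08, adjusted p = 1.09e-18, edgeR), and Cth, which makes cysteine from cystathionine (-2.20 ± 0.14, adjusted p = 6.00e-14, edgeR). The one gene with a larger log2 response was Atf5, an ATF4-related factor (0.56 ± 0.07, adjusted p = 2.42e-07, edgeR). Atf5 averaged 303 CPM in knockdown cells with thapsigargin, 464 in control cells with thapsigargin, 74.5 in knockdown cells with DMSO and 187 in control cells with DMSO, so that on the CPM scale 82.7% of its control rise was kept. Cth averaged 7.80 CPM in knockdown cells with thapsigargin, 96.6 in control cells with thapsigargin, 2.36 in knockdown cells with DMSO and 7.10 in control cells with DMSO, so that 6.08% of its control rise was kept, the lowest share of the 30. The others ranged up to 84.3%, and the median was 41.8%.

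The 23 ER chaperone and degradation genes are ones that ATF6 and XBP1 are known to drive. Of the 23, 22 rose in knockdown cells (all genes: 35.4% called higher) and all 23 in control cells (all genes: 37.7%). Their response was smaller in knockdown cells for 21, larger for 1 and not past the test for 1 (all genes: 17.7% lower, 17.6% higher). Their median log2 difference was -0.64, and they kept a median 50.7% of the control rise, from 21.3% to 134%. The highest share was that of Derl3, with a mean of 0.806 CPM or less in each group and a difference that did not pass. Sel1l (-1.46 ± 0.07, adjusted p = 7.24e-18, edgeR) and Herpud1 (-1.28 ± 0.07, adjusted p = 1.02e-16, edgeR), both of the ER degradation complex, had the largest falls in response. Xbp1 had a larger log2 response (0.34 ± 0.06, adjusted p = 1.58e-05, edgeR). It averaged 531 CPM in knockdown cells with thapsigargin, 610 in control cells with thapsigargin, 124 in knockdown cells with DMSO and 200 in control cells with DMSO. On the CPM scale 99.4% of its control rise was kept. Among 19 tested C/EBP, ATF and partner factors the log2 difference of effects was lower for 8, higher for 4 and not past the test for 7 (all genes: 17.7% lower, 17.6% higher). Of these factors Atf4, Ddit3, Atf3 and Cebpb, all lower, and Atf5, higher, were already counted among the ATF4 and CHOP stress genes. Atf3 (-1.82 ± 0.09, adjusted p = 7.13e-17, edgeR) and Ddit3, which encodes CHOP (-1.17 ± 0.08, adjusted p = 6.94e-14, edgeR), stood at one end. Cebpa (2.20 ± 0.16, adjusted p = 6.68e-13, edgeR) and Jun (0.86 ± 0.07, adjusted p = 4.14e-11, edgeR) stood at the other. Cebpa averaged 5.03 CPM in knockdown cells with thapsigargin, 6.11 in control cells with thapsigargin, 4.02 in knockdown cells with DMSO and 25.03 in control cells with DMSO, and its log2 change with thapsigargin was 0.21 in knockdown cells and -1.99 in control cells. Scaled by library size alone, without the composition factor, 75.5% of the calls in the difference of effects were higher, against 49.9% in the main fit, and 66.6% against 50.1% of those between knockdown and control cells with thapsigargin. With that scaling the median log2 difference of effects over all genes was 0.17, against 0.01 in the main fit.

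The families of the 6 genes are small, and their counts of calls in the difference of effects are to be read against the 17.7% of all genes called lower and the 17.6% called higher, which holds for each family below. Of 10 tested carbonic anhydrases 7 fell and 2 rose with thapsigargin in control cells (all genes: 37% lower, 37.7% higher). In the difference of effects only Car12, a membrane form, was lower (-1.04 ± 0.33, adjusted p = 0.0128, edgeR), with 0.844, 0.680 and 0.599 CPM in knockdown cells with thapsigargin, 3.90, 2.87 and 4.60 in control cells with thapsigargin, 0.820, 1.11 and 0.801 in knockdown cells with DMSO, and 2.64, 2.30 and 2.97 in control cells with DMSO. Car2, Car3, Car5b, Car11 and Car13 were higher, with log2 differences of 0.38 to 0.70, and the other 4 did not pass. These genes fell with thapsigargin in control cells (log2 changes of -1.41 to -0.54), with changes of -1.01 to 0.03 in knockdown cells. With thapsigargin Car2 and Car3 were lower in knockdown than in control cells, Car5b and Car13 higher, and Car11 did not pass. With DMSO all but Car5b were lower in knockdown cells, as for Car3 (8.43 against 47.6 CPM). Without the second knockdown DMSO library the Car12 call was lost, and without 1 library the Car11 call was lost in 1 of 12 fits. Of 6 tested villin and gelsolin family genes Vill (0.65 ± 0.24, adjusted p = 0.0317, edgeR) and Gsn (0.35 ± 0.06, adjusted p = 8.64e-06, edgeR) were higher in the difference of effects, and none was lower, but the Vill call was lost in 6 of the 12 fits without 1 library and with limma-voom. Both fell with thapsigargin in control cells (log2 change -0.81 for Vill and -0.97 for Gsn), with changes of -0.16 and -0.63 in knockdown cells. Vill averaged 1.27 CPM in knockdown cells with thapsigargin, 4.58 in control cells with thapsigargin, 1.31 in knockdown cells with DMSO and 8.33 in control cells with DMSO. Gsn was higher in knockdown than in control cells with either treatment. Villin itself, Vil1, had a log2 difference of 0.60 ± 0.96 and did not pass.

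Among 8 genes of the Rab5 pathway Rin1 (-0.21 ± 0.07) and Gapvd1 (-0.20 ± 0.06) were lower and Rin2 (0.53 ± 0.07) and Rab5b (0.20 ± 0.07) higher in the difference of effects, and 4 did not pass (edgeR). Scaled by library size alone, the calls of Rin1 and Gapvd1 were lost, and the Rab5b call was lost in 2 of the 12 fits without 1 library. Of 11 tested desmosome and cornified envelope genes (all genes: 17.7% lower, 17.6% higher) Lor, Ppl, Pkp1 and Jup were lower in the difference of effects, Pkp2 was higher and 6 did not pass. Lor, which encodes the cornified envelope protein loricrin, had the lowest value (-2.71 ± 0.31, adjusted p = 1.08e-08, edgeR), with 4.44, 5.06 and 5.39 CPM in knockdown cells with thapsigargin, 4.02, 4.21 and 4.55 in control cells with thapsigargin, 1.61, 2.17 and 1.77 in knockdown cells with DMSO, and 0.174, 0.369 and 0.259 in control cells with DMSO. Unlike Cdsn, Lor was thus not lower in stressed knockdown cells, and its smaller response went with a higher level in unstressed knockdown cells. Ppl (-1.63 ± 0.59), periplakin, likewise averaged 1.55 CPM in knockdown cells with thapsigargin, 0.595 in control cells with thapsigargin, 0.716 in knockdown cells with DMSO and 0.0949 in control cells with DMSO. The Jup call (-0.23 ± 0.09) was lost under library size alone and in 8 of the 12 fits without 1 library, and the Ppl call in 3.

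Dnmt3l acts with Dnmt3a and Dnmt3b, the enzymes that place new DNA methylation. Of 12 tested DNA methylation genes (all genes: 17.7% lower, 17.6% higher) Dnmt3a (0.80 ± 0.11), Dnmt3b (0.85 ± 0.23), Dnmt1 (0.48 ± 0.06) and Uhrf1 (0.50 ± 0.06) were higher in the difference of effects. Mbd2 (-0.54 ± 0.06, adjusted p = 3.20e-08, edgeR) was lower and 7 did not pass. Dnmt3a averaged 14.4 CPM in knockdown cells with thapsigargin, 10.7 in control cells with thapsigargin, 14.4 in knockdown cells with DMSO and 20.8 in control cells with DMSO. Among 4 tested CAP superfamily genes Glipr2 (-0.19 ± 0.07) was lower and Pi15 (0.40 ± 0.13) higher, but each call was lost in 3 of the 12 fits without 1 library and that of Glipr2 also under library size alone.

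The nearest tested protein-coding genes on both sides of each of the 6 were then compared. Of these 12 neighbours 1 was lower in the difference of effects, 3 were higher and 8 did not pass, against 17.7% lower and 17.6% higher over all genes tested. A set of 12 genes is too small to tell whether its shares differ from that background. The one that was lower was Icosl, which encodes the ligand of the T cell co-receptor ICOS and lies 5.68 kb from Dnmt3l. Icosl had 1.34, 0.680 and 1.95 CPM in knockdown cells with thapsigargin, 4.71, 4.07 and 4.03 in control cells with thapsigargin, 0.189, 0.0571 and 0.0286 in knockdown cells with DMSO, and 0.0871, 0.0567 and 0.0288 in control cells with DMSO. It was strongly raised by thapsigargin in both, and less so in knockdown cells (log2 difference -2.42 ± 0.93, adjusted p = 0.0425, edgeR). That call was lost in 5 of the 12 fits without 1 library, with a value of -1.43 without the first knockdown DMSO library. With DMSO the knockdown and control libraries overlapped for Icosl, whereas those of Dnmt3l did not.

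Ctdsp2, 0.734 kb from Avil, fell with thapsigargin in both and less in knockdown cells (0.56 ± 0.06, adjusted p = 1.22e-08, edgeR). The sign of this difference was the opposite of that of Avil. Ctdsp2 averaged 85.0 CPM in knockdown cells with thapsigargin, 103 in control cells with thapsigargin, 113 in knockdown cells with DMSO and 225 in control cells with DMSO. Like Avil, it was thus lower in stressed knockdown than in stressed control cells, and it was also lower with DMSO. BC004004 and Mtch1 on the sides of Pi16 also fell in both, with small positive differences (0.18 ± 0.07 and 0.19 ± 0.06). The BC004004 call was lost in 10 and the Mtch1 call in 2 of the 12 fits without 1 library. Psors1c2, 17.5 kb from Cdsn, fell with thapsigargin in knockdown cells (log2 change -2.66, adjusted p = 0.000776, edgeR) and had a log2 change of -1.14 in control cells (adjusted p = 0.0783, edgeR). The difference between them did not pass (-1.52 ± 0.94, adjusted p = 0.225, edgeR), with at most 18 reads in a library. Prss46, 23.3 kb from Als2cl, did not respond past the test in either, but was higher in knockdown cells with thapsigargin (log2 1.79, adjusted p = 6.82e-06, edgeR) and with DMSO (1.71, adjusted p = 1.41e-05, edgeR). It had 1.20, 1.91 and 1.23 CPM in knockdown cells with DMSO and 0.378, 0.397 and 0.576 CPM in control cells with DMSO, so that Prss46, like Als2cl, was higher in unstressed knockdown cells. Lrrc2 on the other side had a log2 difference of 0.14 ± 0.69 and did not pass.

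Likeness to the 6 genes was measured over the 4 group means, each written as a percent of the control thapsigargin mean. The median profile of the 6 was 3.23% in knockdown cells with thapsigargin, 1.64% in knockdown cells with DMSO and 4.31% in control cells with DMSO. Among 12317 genes with at least 1 CPM in control cells with thapsigargin, 34 lay within 5 percentage points of it (root mean square distance). The 8 nearest were Try5, Traf3ip3, Kcnma1, Akr1b7, Cyp4f40, Rhox2d, Ostn and Sspo. Their kinds of product vary: Kcnma1 encodes the pore of the BK potassium channel, Ostn the muscle and bone peptide osteocrin, Traf3ip3 an adaptor of immune signalling and Sspo the secreted glycoprotein SCO-spondin. Most were scarce, and Sspo was the most abundant, with 3.22, 2.24 and 2.40 CPM in knockdown cells with thapsigargin, 34.01, 26.6 and 30.2 in control cells with thapsigargin, 0.284, 0.342 and 0 in knockdown cells with DMSO, and 1.54, 1.19 and 1.21 in control cells with DMSO. Kcnma1 had 0.219, 0.476 and 0.284 CPM in knockdown cells with thapsigargin, 5.14, 4.55 and 5.15 in control cells with thapsigargin, 0.0947, 0.200 and 0.172 in knockdown cells with DMSO, and 0.378, 0.113 and 0.144 in control cells with DMSO. Ostn had 38, 43 and 61 reads in control cells with thapsigargin and at most 3 reads in any other library. Fold responses of such scarce genes are poorly set. The log2 difference of effects was 0.87 for Cyp4f40, which had 0 CPM in knockdown cells with DMSO. Neither the size nor the sign of that value can be read. Rhox2d (-2.13) also had 0 CPM there. Ostn (-11.7) had 0 CPM in knockdown cells with thapsigargin and in control cells with DMSO, so the size of its value cannot be read either. For Sspo the difference was -1.03, and for the others of the 8 it lay between those of Ostn and Rhox2d. Try5, Akr1b7, Cyp4f40 and Rhox2d belong to families of related genes, so their counts may be uncertain, which was not measured. Of the 6 themselves Dnmt3l and Avil lay nearest to the median profile (0.883 and 1.31 percentage points), and Cdsn and Als2cl lay farthest from it (8.99 and 14.3).

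**Figure D3:**
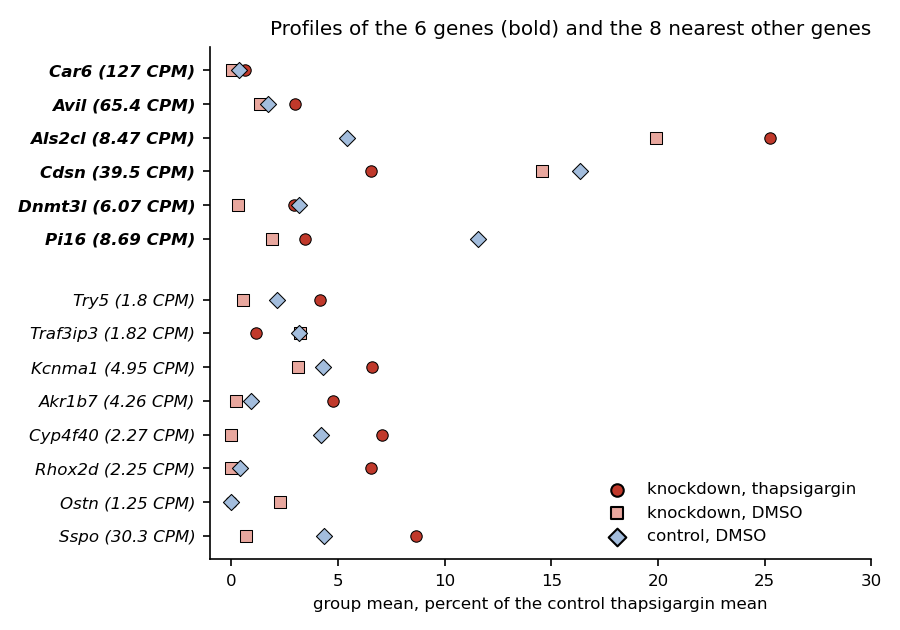
Group means of knockdown cells with thapsigargin, knockdown cells with DMSO and control cells with DMSO as a percent of the control thapsigargin mean, for the 6 genes (bold) and the 8 nearest other genes, with that mean in CPM beside each name. For Als2cl both knockdown groups (25.3% and 19.9%) lie right of control cells with DMSO (5.44%), and for Cdsn the knockdown thapsigargin point (6.54%) is the lowest of the 3.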

How the data were processed

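Poly(A)-selected RNA of 12 libraries was sequenced, 3 per group. The authors deposited raw read counts per gene. Per the submitters' processing notes, Trim Galore, STAR 2.5.3a, bedtools 2.31.0, DESeq2 and the builds mm10 and hg38 were used, with no role stated. The counter, annotation release and strand setting are not given in the sources used here. Overlapping genes are therefore uncertain. Entries that name no gene held 13.3% to 14.6% of reads per library and were left out.

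Identifiers were matched to GENCODE vM21 (53706 of 53801). CPM are counts per M reads in genes, and RPKM divides them by merged exon length. Tests used edgeR 4.0.16 (R 4.3.3) on the counts of all 12 libraries: filterByExpr, TMM factors (0.9666 to 1.073), robust quasi-likelihood fits and Benjamini-Hochberg adjusted p-values over 15828 genes, called below 0.05. The common biological coefficient of variation was 4.67%. Standard errors are approximate, from the log2 change and its F statistic. The pipeline was tested on simulated data.

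The 6 genes, the gene lists and the marker lists were chosen with earlier results of these data known, so the 6 genes have no p. Genes named besides them were their nearest tested coding neighbours, the 8 genes nearest to their median profile, up to 2 called genes in each direction of each pathway list and all called relatives. Of the family lists 2 genes are not reported here and are left out of the counts. Genes given as scale, as those with a promoter match and Vil1, were added after their values were seen. Alternatives were other scalings and filters, DESeq2 1.42.0, limma-voom (limma 3.58.1), a replicate block, a threshold of 0.01, fits of only the 2 groups compared and fits without each library.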

Additional observations from a re-analysis of the deposited data

Results flagged for a closer look

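The response to thapsigargin differed between knockdown and control cells for 38 genes named above, by the edgeR test of the difference itself at an adjusted p below 0.05. All but the neighbours among them were named because they passed it, so the count does not measure how common such differences are. Of the 12 neighbours 4 passed. Over all 15828 genes tested 17.7% were lower and 17.6% higher. Values are log2 differences of effects, knockdown minus control. A positive value can be a smaller fall as well as a larger rise. Among pathway genes they were Ppp1r15a -2.51, Cth -2.20, Atf5 0.56, Sel1l -1.46, Herpud1 -1.28, Xbp1 0.34, Atf3 -1.82, Ddit3 -1.17, Cebpa 2.20, Jun 0.86. Among neighbours they were Ctdsp2 0.56, Icosl -2.42, BC004004 0.18, Mtch1 0.19. Among relatives of Car6 they were Car12 -1.04, Car11 0.70, Car2 0.62, Car3 0.38, Car5b 0.41, Car13 0.56. Among relatives of Avil and Als2cl they were Vill 0.65, Gsn 0.35, Rin1 -0.21, Gapvd1 -0.20, Rin2 0.53, Rab5b 0.20. Among desmosome and cornified envelope genes they were Lor -2.71, Ppl -1.63, Pkp2 0.70, Jup -0.23, Pkp1 -0.45. Among DNA methylation and CAP superfamily genes they were Mbd2 -0.54, Dnmt3b 0.85, Dnmt3a 0.80, Dnmt1 0.48, Uhrf1 0.50, Glipr2 -0.19, Pi15 0.40.

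Of the 6 genes Cdsn was noted because its libraries moved in opposite directions with thapsigargin, down in all 3 knockdown libraries and up in all 3 control libraries (log2 difference -3.93). That difference was not tested, since Cdsn was chosen by it. Groups of 3 libraries are too small for a test of single outlying libraries.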

How the results depend on the processing

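The log2 differences of effects of all 6 genes kept their sign under every alternative run. Without 1 library they ranged from -4.87 to -3.63 for Car6, -5.13 to -4.66 for Avil, -4.20 to -3.77 for Als2cl, -4.10 to -3.79 for Cdsn, -2.58 to -1.76 for Dnmt3l and -2.82 to -2.05 for Pi16. Car6 was -3.63 without the second and -4.87 without the third knockdown DMSO library, and Dnmt3l was -2.65 with limma-voom. Counts of higher and lower calls in the difference of effects, 2790 and 2804, became 5204 and 1685 when scaled by library size alone, and lay between 2384 and 2693 and between 2543 and 2772 without 1 library.

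Counts of lower calls in the small lists moved as follows. Carbonic anhydrases had 0 at a threshold of 0.01 and 0 to 2 without 1 library. The Rab5 list had 0 under library size alone, 1 without a filter and 0 at 0.01. Desmosome genes had 2 at 0.01 and 2 to 4 without 1 library. CAP genes had 0 under library size alone, without a filter and at 0.01, and 0 to 1 without 1 library. Called neighbours numbered 1 at 0.01 and 2 to 4 without 1 library. The cause was not tested beyond what the alternatives change. Of 46 named genes outside the 6, 26 kept their call under every alternative run. Signs of uncalled values turned for Eno1 (0.10) and Pfkl (0.034) under library size alone, for Lrrc2 (-0.053) with limma-voom, and without 1 library for Slc2a5 (-0.11 to 0.84), Prss46 (-0.15 to 0.34) and Lrrc2 (-0.58 to 0.50).

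Libraries with the same replicate number did not deviate together: 18 pairs had correlations of -0.03 to 0.08 and 4 of 12 libraries correlated best with their own number, so the numbers were not taken to pair the samples. With a replicate block the calls in the difference of effects were 2895 and 2875. Depth limits the low values: the knockdown DMSO means of Car6 and Dnmt3l rest on 5 and 2 reads.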
